A study of Mus musculus with 32 samples.

Results

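A set of 10 genes of the p53 response was followed in single mouse embryos: Aen, Trp53, Mdm2, Cdkn1a, Ccng1, Bbc3, Bax, Zmat3, Trp53inp1 and Phlda3. They were chosen by name as the gene of p53, its main brake and well-known targets, and they are 10 of the 34223 genes measured. The choice was made with earlier results of these data known, which had singled out Aen. Its call below is therefore no independent evidence about the set. Each of the 32 libraries is 1 late 2-cell embryo, collected 28 h after in vitro fertilization. In the 16 Val_LNA embryos an antisense oligonucleotide with locked nucleic acid (LNA) bases, directed at the valine tRNA fragment tRFValCAC, had been injected, and in the 16 Ctrl_LNA embryos a scramble oligonucleotide with LNA. All embryos were wild type per the labels, all had also received mRNA for H3.3-GFP, and those that were positive for GFP were kept, so both groups carry an injected histone fusion and no group without injection was analysed here. The strain, the parents and the injection days are not stated in the labels, so p-values measure only the spread between these embryos.

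The transcription factor p53 is held low by the ubiquitin ligase MDM2 and is freed when DNA is damaged or other stress is sensed. It then switches on genes that stop the cell cycle, repair DNA, retune metabolism or start cell death through the mitochondrial pore protein BAX, and it also switches on Mdm2, which closes the loop. At the late 2-cell stage the mouse embryo is replacing RNA stored in the egg with RNA from its own genome. Aen encodes apoptosis-enhancing nuclease, a 3' to 5' exonuclease that was first described as a p53 target.

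The embryos gave 2592925 to 6259870 reads in Val_LNA and 3759692 to 6128941 in Ctrl_LNA, so 3 reads corresponded to 1.82 to 5.14 normalised counts. Ctrl_LNA 48 stood apart, with 7276 genes detected against 16687 to 20200 in the other 31 embryos, and a value without it is given beside a result whose call it changes or whose size it moves by much (1.57% of tested genes were called higher and 2.63% lower without it). The 2-cell markers were present in every embryo, with sums of 12 genes between 5837 and 33450 normalised counts in Val_LNA and between 2913 and 33190 in Ctrl_LNA. Sums for the 12 cumulus and granulosa cell markers were lower and overlapped between groups, at 64.8 to 1094 in Val_LNA and 175.6 to 948.4 in Ctrl_LNA, where Foxl2 and Fshr were at 0. Most of these sums came from 1 gene, Amhr2, with a mean of 545.3 in Val_LNA and 518.7 in Ctrl_LNA. The median sums were 643.9 in Val_LNA and 536.9 in Ctrl_LNA, and only 2 of the 12 markers had enough counts to be tested. The 11 sperm markers summed to 508.5 to 2184 in Val_LNA and 142.8 to 3040 in Ctrl_LNA, where Tnp2 was at 0. The 10 markers of later embryos summed to 226.6 to 1033 in Val_LNA, where Sox17 was at 0, and 258.4 to 2736 in Ctrl_LNA. The 13 maternal markers summed to 7388 to 41870 in Val_LNA and 2993 to 25770 in Ctrl_LNA. The median sum was 10180 in Val_LNA and 7356 in Ctrl_LNA for the 2-cell markers, and 15110 in Val_LNA and 10880 in Ctrl_LNA for the maternal markers. Log2 fold changes were positive for 12 of 12 tested 2-cell markers (median 0.90; 0.60 without Ctrl_LNA 48) and 11 of 13 maternal markers (median 0.90; 0.34 without Ctrl_LNA 48), beside a median of 0.26 over all tested genes (0.07 without Ctrl_LNA 48). No tested marker was called, and the part of these cell types in the results was not tested. In whole embryos, fewer cells that express a gene and less RNA per cell cannot be told apart.

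The stretches before the start sites of these genes are shown because p53 is known to act by binding a recurring run of letters near or within its target genes. A search was made for the p53 full-site consensus, 20 bases made of 2 copies of the 10-base consensus with no spacer, with both core C and G bases kept and up to 3 mismatches, a limit chosen after the matches had been seen. The consensus reads alike on both strands. RefSeq windows of the 250 bases before each listed start (GRCm38.p6) were at hand for 8 of the 10 genes, 12 windows in all, and not for Zmat3 and Trp53inp1. A match was found in 5 of the 12 windows, and 374 of all 32851 windows (1.14%) hold one. An exact 10-base match lay in 6 of the 12 windows and in 7.13% of all windows. The genes had been chosen as known p53 targets and some of their windows overlap, so these shares are no test of enrichment. Capitals mark the 20-base match in the 5 sequences below, written 5' to 3' on the strand of the gene. The Aen sequence is the match with 5 bases on each side, and the other 4 are the windows without annotated exon bases of the gene.
Aen: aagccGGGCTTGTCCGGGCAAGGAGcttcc
Trp53: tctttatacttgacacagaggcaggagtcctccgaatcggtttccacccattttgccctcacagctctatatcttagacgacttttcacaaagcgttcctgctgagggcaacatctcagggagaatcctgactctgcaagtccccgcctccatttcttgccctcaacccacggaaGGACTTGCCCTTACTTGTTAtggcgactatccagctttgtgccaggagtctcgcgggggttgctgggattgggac
Cdkn1a: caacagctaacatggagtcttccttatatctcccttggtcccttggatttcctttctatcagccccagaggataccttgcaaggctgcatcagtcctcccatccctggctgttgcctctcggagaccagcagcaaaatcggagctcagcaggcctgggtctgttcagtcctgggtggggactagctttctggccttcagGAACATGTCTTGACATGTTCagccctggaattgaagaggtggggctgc
Ccng1: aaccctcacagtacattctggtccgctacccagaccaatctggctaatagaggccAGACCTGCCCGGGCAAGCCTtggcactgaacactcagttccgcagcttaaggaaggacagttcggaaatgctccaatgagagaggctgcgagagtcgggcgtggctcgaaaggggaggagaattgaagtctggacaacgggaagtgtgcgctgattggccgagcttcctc
Bbc3: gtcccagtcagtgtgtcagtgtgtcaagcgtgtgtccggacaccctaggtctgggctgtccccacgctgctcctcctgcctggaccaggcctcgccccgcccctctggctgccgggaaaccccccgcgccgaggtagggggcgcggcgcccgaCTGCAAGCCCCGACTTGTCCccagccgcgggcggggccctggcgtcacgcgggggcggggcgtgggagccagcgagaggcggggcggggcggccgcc
The Aen stretch is chr7:78895932-78895961 on the + strand. Its 20 bases lie in an annotated first exon, at -121 to -102 from the second start that RefSeq lists, and carry 3 mismatches. The Trp53 stretch is chr11:69580109-69580358 on the + strand, with the match at -75 to -56 from the start and 3 mismatches. The Cdkn1a stretch is chr17:29090729-29090975 on the + strand, with the match at -51 to -32 from the first listed start and 1 mismatch. The Ccng1 stretch is chr11:40755312-40755536 on the - strand, with the match at -195 to -176 from the start and 1 mismatch. The Bbc3 stretch is chr7:16309333-16309582 on the + strand, with the match at -97 to -78 from the first listed start and 3 mismatches. The Mdm2, Bax and Phlda3 windows hold no such 20 letters, which says only that the letters are not in these windows. A match is a description of the letters and no measure of binding in these embryos.

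Aen was the one gene of the 10 that differed between the groups by the test. Its level fell in Val_LNA embryos, to a mean of 85.2 ± 44.3 normalised counts, against 445 ± 265 in Ctrl_LNA embryos (SD, n = 16 each), a ratio of the means of 0.191. Of the 10 genes, 9 passed the filter on low values (at least 10 normalised counts in at least 8 embryos), 1 was called lower, 0 were called higher and 8 were not called. A call is a Benjamini-Hochberg adjusted p under 0.05 in limma over all 15559 tested genes, of which 341 (2.19%) were called, 204 lower (1.31%) and 137 higher (0.881%). At an unadjusted p under 0.05, 3 of the 9 genes passed, Aen, Zmat3 and Trp53, beside 14.7% of all tested genes.

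The Aen gene (ENSMUSG00000030609.18) lies at chr7:78895854-78911209 on the + strand of GRCm38 and has 5801 exonic bases. In Val_LNA embryos 1 to 8 Aen measured 104.36, 90.9, 56.17, 6.95, 94.06, 172.04, 171.46 and 53.38 normalised counts. In Val_LNA embryos 13 to 20 it measured 87.11, 62.33, 89.53, 18.62, 109.43, 65.37, 94.27 and 87.76. The median was 88.7, with embryos 4 and 16 far below it and embryos 6 and 7 well above it. In Ctrl_LNA embryos 31 to 38 Aen measured 670.8, 317.72, 383.87, 160.23, 272.69, 319.6, 387.72 and 613. In Ctrl_LNA embryos 43 to 50 it measured 688.6, 672.38, 152.31, 331.93, 314.63, 1193.12, 269.83 and 374.12. The median in Ctrl_LNA was 353, embryo 48 was the highest, and embryos 45 and 34 were the lowest.

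All 16 Val_LNA embryos lay below the Ctrl_LNA median of Aen, a pattern seen in 175 of the tested genes (1.12%). The groups overlapped at their edges only: 2 Val_LNA embryos lay above the lowest Ctrl_LNA embryo and 2 Ctrl_LNA embryos below the highest Val_LNA embryo. The groups did not overlap at all for 5 of the tested genes (0.0321%) and for 0 of the 10 p53 genes. Behind these values stood 7 to 234 reads per embryo in Val_LNA and 151 to 1136 in Ctrl_LNA, all above 3 reads. The log2 fold change was -2.45 ± 0.36 (SE; 95% interval -3.17 to -1.72; limma, adjusted p = 4.07e-05) on the log2(normalised count + 1) scale. Aen had the rank 20 by p among the tested genes. It was also called lower in edgeR's quasi-likelihood test (-2.44, adjusted p = 3.16e-05), where 1.08% of genes were called lower, and in DESeq2 (-2.39, adjusted p = 1.49e-11), where 2.09% were. A two-sided permutation test of the difference of mean log2 values gave p = 2e-05, the smallest value that 100000 resamples allow.

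**Figure D1:**
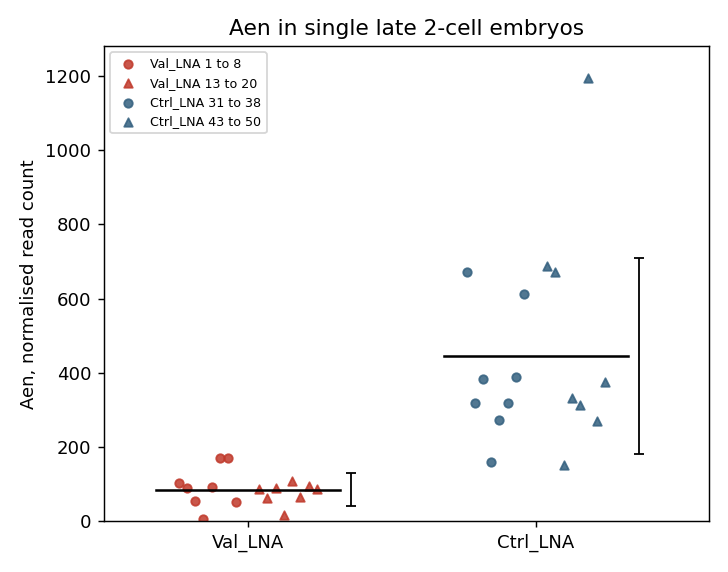
Normalised counts of Aen in each embryo on a linear axis, Val_LNA left and Ctrl_LNA right, with circles and triangles for the runs of library numbers, a line at the mean and a bar of 1 SD on each side. Val_LNA embryos span 6.95 to 172 and Ctrl_LNA embryos 152.3 to 1193, so the groups meet only between 152.3 and 172.

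Without Ctrl_LNA 48, the highest embryo for Aen, the Ctrl_LNA mean was 395.3 ± 180.1 and the log2 fold change -2.34 (limma, adjusted p = 2.18e-05). The library numbers form an upper and a lower run in each group, which the labels do not call batches, and the runs share no embryo. No label links a Val_LNA run with a Ctrl_LNA run, and they were matched here by order of number only. The groups hold separate ranges of numbers, so a difference between those ranges cannot be told apart from the treatment. In the lower run (Val_LNA 1 to 8, Ctrl_LNA 31 to 38) the mean was 93.7 ± 57.2 in Val_LNA and 390.7 ± 171.3 in Ctrl_LNA, with a difference of -2.33 (exact permutation p = 0.000466, two-sided, n = 8 and 8). In the upper run (Val_LNA 13 to 20, Ctrl_LNA 43 to 50) it was 76.8 ± 28.0 in Val_LNA and 499.6 ± 337.6 in Ctrl_LNA, with a difference of -2.56 (exact permutation p = 0.000155, two-sided, n = 8 and 8). The difference was of like size in both runs. Both belong to the data in which Aen had been singled out, so neither run is an independent repeat. In limma across all genes within a run, the adjusted p was 0.0295 in the lower run and 0.0502 in the upper, and 0.00641 in the upper without Ctrl_LNA 48, where 0.533%, 0.212% and 0.797% of genes were called lower. With array weights, which give less weight to embryos that scatter more, Trp53 (-1.15, adjusted p = 0.0296) and Zmat3 (adjusted p = 0.0359) were called lower beside Aen, and so were 3.62% of all tested genes. Centred on the median gene of each embryo, Aen and Zmat3 (adjusted p = 0.0432) were, beside 1.93%. The upper effect minus the lower was -0.23 (limma, 95% interval -1.71 to 1.25, adjusted p = 0.949).

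Per kilobase of exon, Aen took different places among the 10 genes in the groups. In Val_LNA embryos the medians ran, in normalised counts per kilobase, from Mdm2 at 173 through Trp53inp1 at 93.5, Cdkn1a at 84.5, Bax at 49.7, Trp53 at 41.2, Ccng1 at 23.4 and Aen at 15.3 to Bbc3 at 1.45 and Zmat3 at 0.0433. In Ctrl_LNA embryos they ran from Mdm2 at 165 through Trp53 at 104, Trp53inp1 at 65, Aen at 60.9, Bax at 55.2, Cdkn1a at 49.4 and Ccng1 at 16.4 to Bbc3 at 2.07 and Zmat3 at 1. The median of Phlda3 was 0 in both. Neighbours from Trp53 to Cdkn1a had overlapping spreads in Ctrl_LNA, where Aen spanned 26.3 to 206, Trp53inp1 14.4 to 222 and Cdkn1a 22.8 to 140, and their order was not tested.

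**Figure D2:**
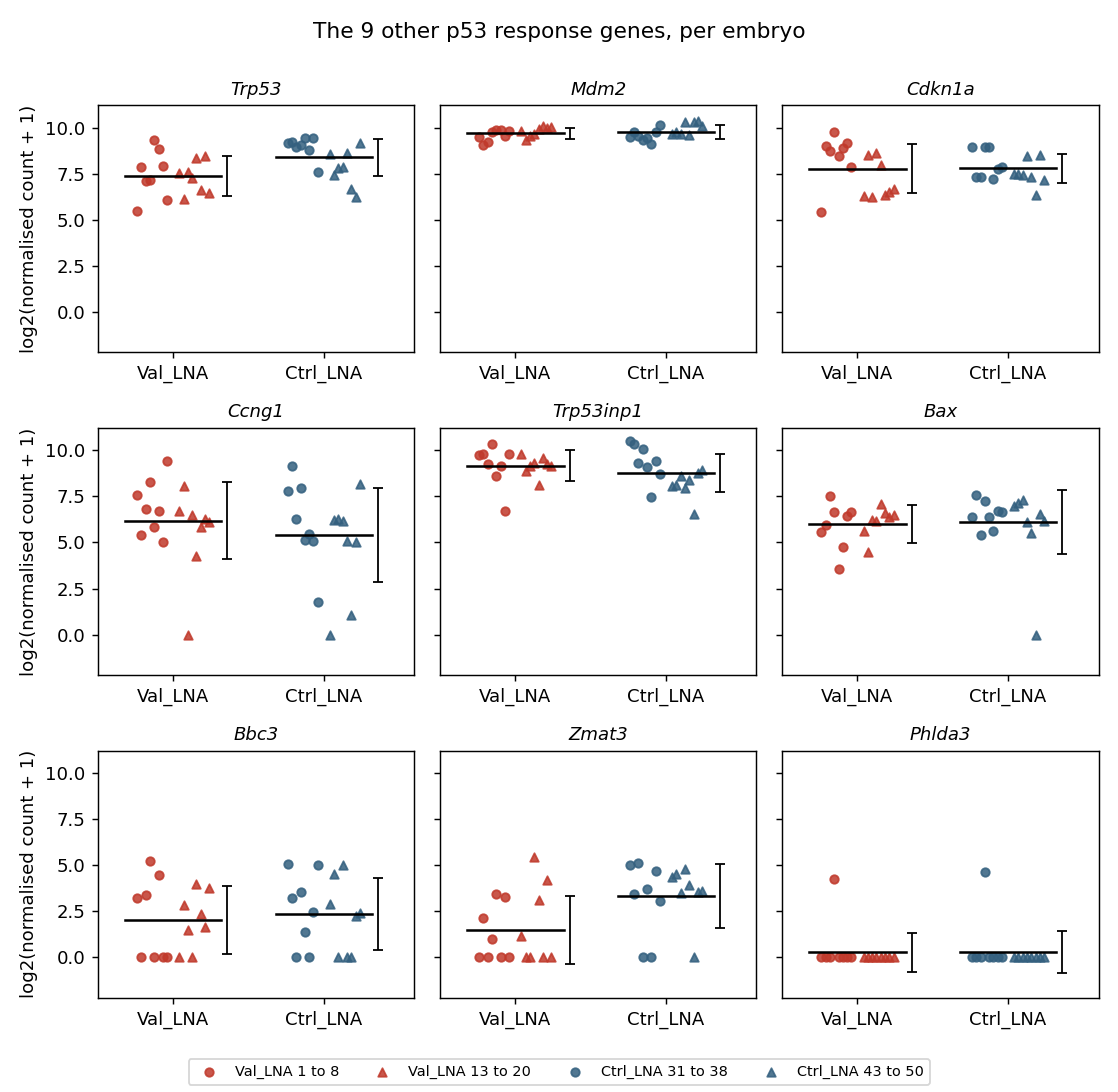
Log2(normalised count + 1) of the 9 genes other than Aen in every embryo, Val_LNA left of Ctrl_LNA in each panel, with a line at the mean and a bar of 1 SD on each side. Trp53 and Zmat3 overlap widely between the groups, with 14 of 16 Val_LNA embryos below the Ctrl_LNA median, Mdm2 is the most even of the 8 tested genes shown, and Phlda3 has reads in 1 embryo of each group.

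Trp53 itself, the gene of p53, did not pass the adjusted test. Its lowest, median and highest values were 43.9, 167 and 642.4 normalised counts in Val_LNA and 73.9, 419.9 and 696.8 in Ctrl_LNA. Although 14 of 16 Val_LNA embryos lay below the Ctrl_LNA median, the groups overlapped over most of their range. Means were 212.8 ± 161.5 in Val_LNA and 398.5 ± 207.5 in Ctrl_LNA, with a log2 fold change of -1.002 ± 0.37 (95% interval -1.75 to -0.25; limma, unadjusted p = 0.0104, adjusted p = 0.178). Leaving out Ctrl_LNA 48 gave -1.11 (adjusted p = 0.0605). Trp53 (chr11:69580359-69591873) has a processed pseudogene, Trp53-ps, and no label says how the counting divided reads between them.

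By run of library numbers, the Trp53 values were these. In the lower run the median was 186.3 in Val_LNA and 555.4 in Ctrl_LNA, with a log2 fold change of -1.50 (95% interval -2.47 to -0.52; limma, adjusted p = 0.155). In the upper run it was 167 in Val_LNA and 231.5 in Ctrl_LNA, with -0.51 (95% interval -1.65 to 0.64; adjusted p = 0.685). The upper minus the lower run gave a log2 difference of -0.17 within Val_LNA (limma, adjusted p = 0.982) and -1.16 within Ctrl_LNA (limma, unadjusted p = 0.0178, adjusted p = 0.535). The difference of the 2 effects was 0.99 (limma, 95% interval -0.44 to 2.42, adjusted p = 0.817). Among all tested genes limma called 0 differences of effect, while 808 (5.19%) had an unadjusted p under 0.05.

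Mdm2, the ubiquitin ligase that marks p53 for breakdown and is itself a p53 target, varied least between embryos among the 9 tested p53 genes. Its lowest, median and highest values were 528.2, 880.5 and 1075 normalised counts in Val_LNA and 551.6, 839.3 and 1296 in Ctrl_LNA. The coefficient of variation over embryos was 0.19 in Val_LNA and 0.26 in Ctrl_LNA, below that of Aen at 0.52 in Val_LNA and 0.59 in Ctrl_LNA. The groups overlapped almost fully, with a log2 fold change of -0.08 ± 0.15 (95% interval -0.38 to 0.22; limma, adjusted p = 0.813). With 308 to 1662 reads per embryo in Val_LNA and 611 to 2070 in Ctrl_LNA, its interval was the narrowest of the 9.

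**Figure D3:**
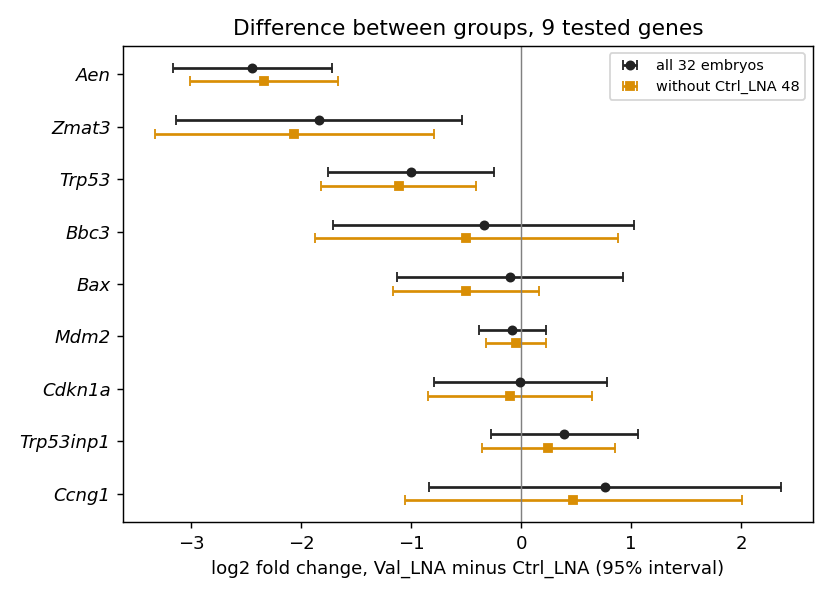
Log2 fold change of the 9 tested genes, Val_LNA minus Ctrl_LNA, as points with 95% intervals, for all 32 embryos and without Ctrl_LNA 48. The intervals of Aen, Zmat3 and Trp53 lie below 0, that of Mdm2 is the narrowest (-0.38 to 0.22) and that of Ccng1 the widest (-0.83 to 2.37).

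The cell-cycle members showed no call. Cdkn1a, which encodes the cyclin-dependent kinase inhibitor p21, had a lowest, median and highest value of 42.6, 300.2 and 859.4 normalised counts in Val_LNA and 80.9, 175.6 and 496.2 in Ctrl_LNA. Val_LNA embryos held both the lowest and the highest value, and the log2 fold change was -0.01 ± 0.39 (95% interval -0.79 to 0.78; limma, adjusted p = 0.996). Within Val_LNA the mean was 436.6 ± 243.2 in the lower run and 176.8 ± 134.6 in the upper, a log2 difference of -1.29, upper minus lower (limma, unadjusted p = 0.0286, adjusted p = 0.813). In Ctrl_LNA the means were 298.3 ± 162.4 in the lower run and 202.6 ± 100 in the upper. Between runs limma called 0 genes within Val_LNA, where 913 (5.87%) had an unadjusted p under 0.05, and 0 within Ctrl_LNA, where 1422 (9.14%) had one. Cdkn1a shares 273 exonic bases (7.7%) with a gene model on the other strand, AC167363.2, and the protocol does not mark strand, so reads of the pair cannot be told apart. Ccng1 encodes cyclin G1, a p53 target that acts on MDM2 through a phosphatase. It ranged over 0, 82.3 and 672.1 in Val_LNA and 0, 57.6 and 569.6 in Ctrl_LNA (lowest, median, highest), with reads in 15 of 16 embryos of each group. Its log2 fold change was 0.77 ± 0.79 (95% interval -0.83 to 2.37; limma, adjusted p = 0.651), an interval with values on both sides of 0, and 0.47 without Ctrl_LNA 48.

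The cell-death members were not called either. Bax, which forms pores in the outer mitochondrial membrane, had a lowest, median and highest value of 10.7, 78.4 and 184.1 in Val_LNA and 0, 86.9 and 187.8 in Ctrl_LNA. The 0 belonged to Ctrl_LNA 48, without which the lowest Ctrl_LNA embryo had 40.8. The log2 fold change of Bax was -0.10 ± 0.51 (95% interval -1.13 to 0.93; limma, adjusted p = 0.94) and, without that embryo, -0.50 (adjusted p = 0.454). Bax shares 192 exonic bases (12.2%) with Gm45808 on the same strand, so reads may be divided between them. Bbc3 encodes PUMA, a BH3-only protein that sets BAX free. It was near the limit of detection, with 0, 3.08 and 35.8 in Val_LNA and 0, 4.4 and 32.6 in Ctrl_LNA. Reads were present in 10 of 16 Val_LNA and 11 of 16 Ctrl_LNA embryos, and the log2 fold change was -0.34 ± 0.67 (95% interval -1.71 to 1.03; limma, adjusted p = 0.828).

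Among the other p53 targets, Zmat3 came closest to a call. It encodes a zinc-finger protein that binds RNA and was found in 8 of 16 Val_LNA embryos and 13 of 16 Ctrl_LNA embryos. Its lowest, median and highest values were 0, 0.495 and 42.1 in Val_LNA and 0, 11.5 and 33.1 in Ctrl_LNA. The highest embryo of all was a Val_LNA embryo, number 16, while 14 of 16 Val_LNA embryos lay below the Ctrl_LNA median. The log2 fold change was -1.84 ± 0.64 (95% interval -3.14 to -0.54; limma, unadjusted p = 0.00687, adjusted p = 0.142). It rested on at most 52 reads in a Val_LNA embryo and 36 in a Ctrl_LNA embryo, and edgeR's quasi-likelihood test on the recovered reads gave an adjusted p of 0.599.

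Trp53inp1 encodes a stress-induced protein that promotes p53 phosphorylation and autophagy. Its lowest, median and highest values were 104.8, 605.2 and 1314 in Val_LNA and 93.5, 420.6 and 1438 in Ctrl_LNA, with full overlap and a log2 fold change of 0.39 ± 0.33 (95% interval -0.28 to 1.06; limma, adjusted p = 0.575). By run, its median was 724.8 in Val_LNA and 656.9 in Ctrl_LNA for the lower run, and 584 in Val_LNA and 307.4 in Ctrl_LNA for the upper. The log2 fold change was -0.19 in the lower run and 0.97 in the upper, with a difference of 1.16 (limma, unadjusted p = 0.0675, adjusted p = 0.817). Phlda3, whose protein competes with AKT for membrane lipids, did not pass the filter on low values. It had 17.9 normalised counts in Val_LNA 4 and 23.4 in Ctrl_LNA 34, and 0 in the other 30 embryos, where 3 reads would have been 1.82 to 5.14 normalised counts.

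**Figure D4:**
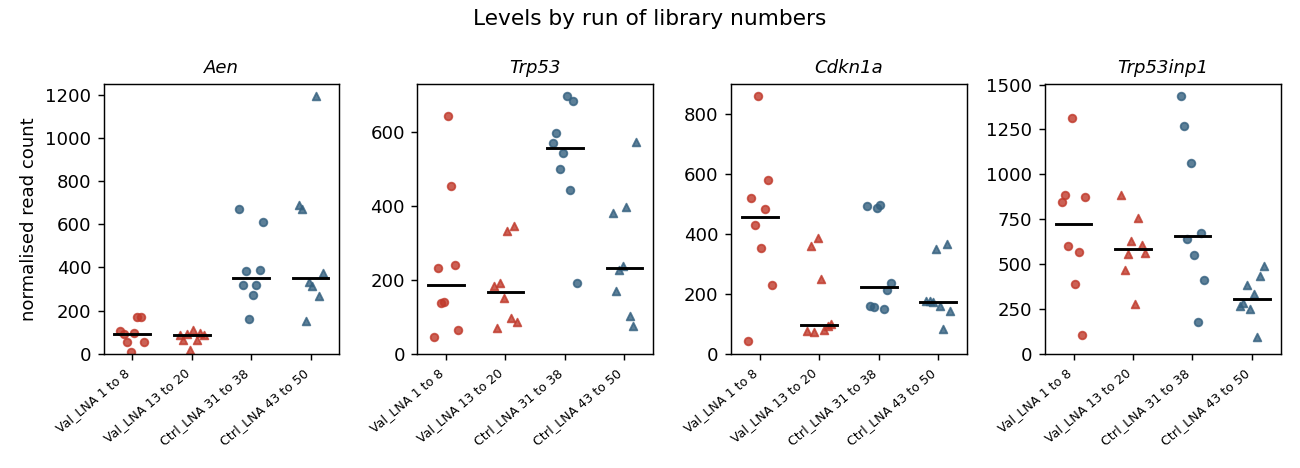
Normalised counts (linear axis, a scale per gene) of Aen, Trp53, Cdkn1a and Trp53inp1 by group and run of library numbers, with a point per embryo and a line at the median. Aen is low in both Val_LNA runs (medians 92.5 and 87.4) beside both Ctrl_LNA runs (351.7 and 353), the Trp53 median is highest in the lower run of Ctrl_LNA (555.4), and that of Cdkn1a in the lower run of Val_LNA (456.1).

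Within a group, the level of Aen did not follow that of the other tested members by the adjusted test. Over 16 relations on the log2 scale, 8 genes in each group, no adjusted p was under 0.05, with a lowest of 0.235 for Pearson's r and 0.264 for Spearman's rho. In Val_LNA, Aen and Trp53 had r = 0.292 (permutation p = 0.278, adjusted p = 0.486) and rho = 0.576 (permutation p = 0.0214, adjusted p = 0.264). Without the 2 embryos farthest from the median of Aen, r was 0.546. Aen and Trp53inp1 in Val_LNA had r = -0.542 (permutation p = 0.0501, adjusted p = 0.267) and rho = -0.5 (permutation p = 0.0495, adjusted p = 0.264), and r = -0.553 without the 2 embryos. Aen and Ccng1 in Val_LNA had r = -0.361 (permutation p = 0.156, adjusted p = 0.415) and rho = -0.532 (permutation p = 0.0353, adjusted p = 0.264), and r = -0.317 without the 2 embryos. In Ctrl_LNA, Aen and Ccng1 had r = -0.556 (permutation p = 0.0251, adjusted p = 0.235) and rho = -0.365 (permutation p = 0.165, adjusted p = 0.589), and r = -0.437 without the 2 embryos. Aen and Bax in Ctrl_LNA had r = -0.549 (permutation p = 0.0294, adjusted p = 0.235) and rho = -0.241 (permutation p = 0.367, adjusted p = 0.589), but r = 0.0602 without the 2 embryos, so the relation rests on them. Leaving only Ctrl_LNA 48 out of Ctrl_LNA gave r = -0.411 for Ccng1 and -0.116 for Bax. It moved Zmat3 from r = 0.0813 to 0.5 (rho = 0.531) and Bbc3 from r = 0.217 to 0.5 (rho = 0.499). No adjusted permutation p was under 0.05 there either, with a lowest of 0.191 for Spearman's rho.

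The 5 genes most like Aen across embryos, once each group mean was removed, are given as a description. With so few places among so many genes, the absence of p53 genes from them carries no weight. Over 31 embryos, without Ctrl_LNA 48, and 12257 genes ranked, the highest correlations were those of Srsf11 at 0.779, Atg13 at 0.759, Gpr107 at 0.746, Ndc80 at 0.743 and Dpm1 at 0.736. These are descriptions across embryos that share depth and library chemistry, and the other tested p53 genes ranged from -0.365 for Trp53inp1 to 0.184 for Trp53. None of the 5 was called between the groups. Srsf11 averaged 357.3 ± 159.3 normalised counts in Val_LNA and 404.4 ± 212.2 in Ctrl_LNA (limma, log2 fold change 0.31 ± 0.56, adjusted p = 0.812).

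The genes around Aen on chromosome 7 were not called. Isg20, a related exonuclease gene that begins 2215 bases past the end of Aen, averaged 41.3 ± 39.98 in Val_LNA and 62.4 ± 43.8 in Ctrl_LNA (limma, log2 fold change -0.95 ± 0.66, adjusted p = 0.496). Mfge8 had a log2 fold change of -1.59 and Abhd2 one of -0.15 on the same side, and on the other side Det1 had 0.33, Mrps11 0.53 and Mrpl46 -0.73 (limma, adjusted p from 0.398 for Mrpl46 to 0.921 for Abhd2). Without Ctrl_LNA 48, Det1 had -0.067, and Mrps11 ranged from 0.165 to 0.703 over fits with an embryo left out.

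Beyond the 10 genes, 5 lists of p53 regulators and targets held 110 genes, of which 107 were found by symbol and 92 passed the filter. Of these 92, 0 were called higher and 1 lower, beside 0.881% higher and 1.31% lower over all tested genes. An unadjusted p under 0.05 (limma) was seen for 9 of the 92, beside 14.7% of all tested genes. The median log2 fold change was 0.18, beside 0.26 over all tested genes, and without Ctrl_LNA 48 it was -0.03 beside 0.07. The called gene was Abcb1a, which encodes the drug efflux pump P-glycoprotein and averaged 4.92 ± 9.61 normalised counts in Val_LNA, with reads in 6 of 16 embryos, and 16.3 ± 18.6 in Ctrl_LNA, with reads in 15 of 16. Its log2 fold change was -2.27 ± 0.61 (limma, adjusted p = 0.0384), and its close copy Abcb1b, among which reads may be divided, had -2.40 (adjusted p = 0.12). The call on Abcb1a was lost in edgeR (adjusted p = 0.451) and in DESeq2 (adjusted p = 0.364).

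Of the 35 tested regulators of p53, 0 were called. Rchy1, a ubiquitin ligase for p53 also known as Pirh2, averaged 1810 ± 712 in Val_LNA and 939 ± 437 in Ctrl_LNA, with a log2 fold change of 1.20 ± 0.39 (limma, adjusted p = 0.106). Without Ctrl_LNA 48, Rchy1 was called higher at 0.84 (limma, adjusted p = 0.00662). On all embryos it was called higher in DESeq2 (0.95, adjusted p = 0.0388) and in limma with array weights (0.69, adjusted p = 0.0135). EdgeR did not call it (0.82, adjusted p = 0.165). The p53 relative Trp63 had 1.76 ± 0.65 (limma, adjusted p = 0.177). Without Ctrl_LNA 48, Rfwd2, the ubiquitin ligase COP1, was also called higher at 0.56 (limma, adjusted p = 0.0178), and Usp10, a deubiquitinase of p53, lower at -0.99 (limma, adjusted p = 0.0379). Both were named after their values were seen.

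The target lists gave no further call in the main fit. Of 13 tested arrest genes 0 were called, with E2f7, a repressor of cell-cycle genes, at a log2 fold change of 1.61 and Pvt1, a long noncoding RNA, at 1.51 (limma, adjusted p = 0.224 and 0.267). Of 13 tested apoptosis genes 0 were called. Bcl2l11, which encodes the BH3-only protein BIM, averaged 178 ± 87.2 in Val_LNA and 394.7 ± 301.5 in Ctrl_LNA, with -1.03 ± 0.34 (limma, adjusted p = 0.117), and was called lower in edgeR (-1.23, adjusted p = 0.0358) and DESeq2 (-1.15, adjusted p = 0.0139). Without Ctrl_LNA 48 the call stayed in DESeq2 (-0.951, adjusted p = 0.0176) and was lost in edgeR, while limma gave -0.885 (adjusted p = 0.0964). Trp53inp2 had 0.99 (limma, adjusted p = 0.405), and 0.46 without Ctrl_LNA 48. Of 11 tested repair genes 0 were called, with Rrm2b, a ribonucleotide reductase subunit, at 0.74 and Xpc, a damage sensor, at 0.89 (limma, adjusted p = 0.484 and 0.603), while Rrm2b had 0.28 without Ctrl_LNA 48. In the metabolism list, 1 of 20 tested genes was called, beside 2.19% of all tested genes, and the sugar transporter gene Slc2a12 had 1.71 (limma, adjusted p = 0.28). Without Ctrl_LNA 48, Gpx1 of that list was called lower in edgeR (-1.395, adjusted p = 0.0443) and DESeq2 (-1.355, adjusted p = 0.0117), but not in limma. Gpx1 was named after its values were seen.

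Among 26 tested genes of the BCL-2 family, caspases and their inhibitors, 1 was called, beside 2.19% of all tested genes. Birc6, a giant ubiquitin ligase that holds caspases in check, fell to 131.9 ± 97.1 in Val_LNA, against 527.9 ± 377.7 in Ctrl_LNA (limma, log2 fold change -2.26 ± 0.42, adjusted p = 0.00121). Its lowest, median and highest values were 12.5, 103.4 and 270.6 in Val_LNA and 151.6, 426.6 and 1756 in Ctrl_LNA, so the groups overlapped between 151.6 and 270.6. Bmf, a BH3-only gene, had 2.09 (limma, adjusted p = 0.189). Among 11 tested exonuclease relatives of Aen, Eri1 was called lower, beside 1.31% of all tested genes, and 10 were not called. Eri1, which trims histone mRNA and small RNAs, averaged 85.3 ± 105.9 in Val_LNA and 209.2 ± 166.7 in Ctrl_LNA (limma, log2 fold change -2.25 ± 0.61, adjusted p = 0.0407). That call was lost in edgeR (adjusted p = 0.346) and DESeq2 (adjusted p = 0.156), and it was kept in only 13 of 32 limma fits with an embryo left out. The RNA exonuclease gene Rexo1 had 1.09 ± 0.37 (limma, adjusted p = 0.125) and was called higher without Ctrl_LNA 48 (1.28, adjusted p = 0.0128), in the lower run alone (1.80, adjusted p = 0.0438) and when array weights were used (1.06, adjusted p = 0.00971). It was not called in edgeR (0.54, adjusted p = 0.609) or DESeq2 (0.67, adjusted p = 0.355). Of the 6 other cyclin-dependent kinase inhibitors 0 were called, with Cdkn2c and Cdkn3 both at 0.85 (limma, adjusted p = 0.575 and 0.595).

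**Figure D5:**
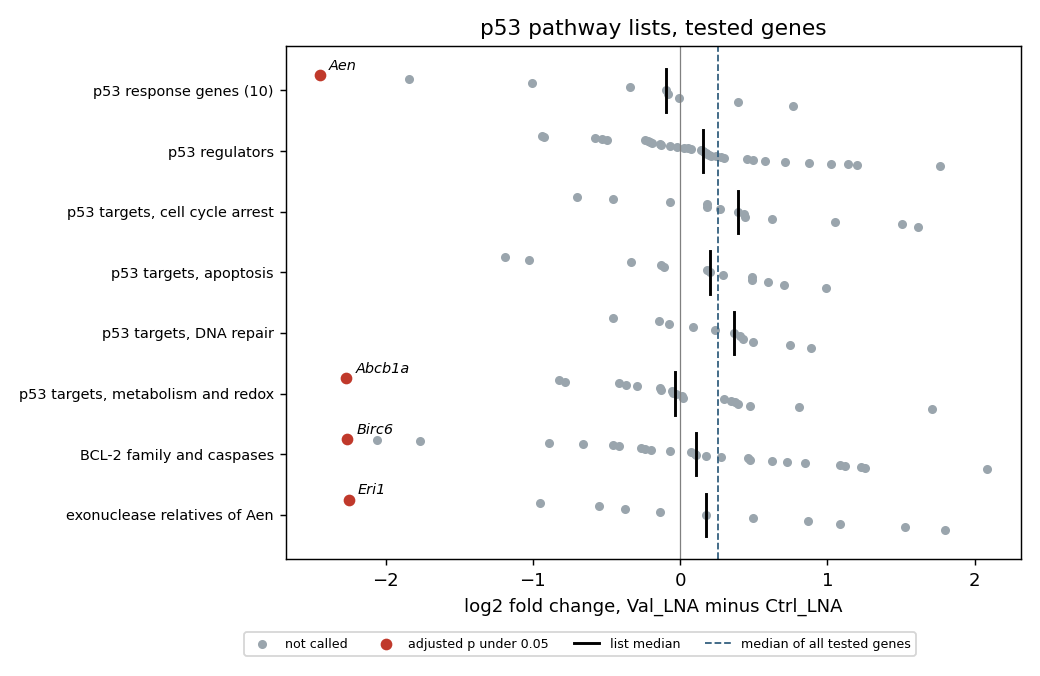
Log2 fold change, Val_LNA minus Ctrl_LNA, of every tested gene in the 10-gene set and 7 lists, with called genes in red, list medians as black bars and the median of all tested genes (0.26) as a dashed line. The called genes, Aen, Abcb1a, Birc6 and Eri1, all lie at or below -2.25, and the list medians lie between -0.10 and 0.40.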

How the data were processed

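Single-embryo polyadenylated RNA was copied with template switching, amplified by 20 PCR cycles and tagmented, per the labels' protocols. The protocols name no molecular identifiers, so each PCR copy is a read, and the read floors cover counting error only. Bowtie2, STAR, SAMtools, DESeq2 and the build mm10 are named per the submitters' processing notes, with no roles or versions. The deposited signal per gene is a read count that the authors divided by a size factor, per the file headers, and is called a normalised count here. The size factors were deposited as a ratio per embryo. Multiplying them back gave whole reads for 1095136 of 1095136 values, within 0.0086. Identifiers matched GENCODE M21 (GRCm38) for 34179 of 34223 genes. Within a group, no embryo looked like a repeat of another (lowest chi-square per gene 23.11 over 240 pairs).

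The test was limma 3.58.1 (R 4.3.3; trend and robust) on log2(normalised count + 1), for genes with at least 10 normalised counts in at least 8 embryos. For low genes a fold change on this scale can lie under or over the ratio of the means. Alternatives were edgeR 4.0.16 with TMM or the deposited factors, DESeq2 1.42.0, a pseudocount of 10, no filter, a filter of 16 embryos, centring on the median gene, array weights, each run of library numbers, and leaving out each embryo. Fits without Ctrl_LNA 48 under edgeR, DESeq2 and in the upper run were chosen after seeing the data. Per-kilobase levels used GENCODE exonic lengths. Permutations used scipy 1.17.1. The fits were also run on simulated counts drawn independently, with no embryo like Ctrl_LNA 48. That outcome is not given here, and no call rests on it.

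The genes named were the 10 members, the called genes and up to 2 smallest p-values of each list, the 3 tested neighbours of Aen on each side, and the 5 genes most like it. The members and lists were chosen with earlier results of these data known.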

Additional observations from a re-analysis of the deposited data

How the results depend on the processing

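Aen was lower in every setting tried, with log2 fold changes from -2.90 (centred on the median gene) to -2.26, and from -2.54 to -2.24 when each embryo was left out in turn (limma, adjusted p 2.18e-05 to 0.000117). Its 1 lost call was the upper run alone, at -2.56 (adjusted p = 0.0502). The members called lower numbered 2 on centring, with Zmat3, 3 with array weights, with Trp53 and Zmat3, 0 in the upper run alone, and 1 with any embryo left out. Those called higher numbered 0 in every setting, leave-outs included. The p53 list genes called lower numbered 0 with edgeR on the deposited factors, a pseudocount of 10, no filter, the stricter filter and either run, 2 with array weights, without Ctrl_LNA 48 and in edgeR without it, and 3 in DESeq2 without it. Those called higher numbered 1 in DESeq2 and in edgeR without Ctrl_LNA 48, and 2 with array weights, without Ctrl_LNA 48 and in DESeq2 without it. Leaving out embryos gave 0 to 2 lower and 0 to 2 higher. Over all genes, calls lower numbered 325 in DESeq2, 564 with array weights, 409 without Ctrl_LNA 48, 83 and 33 in the lower and upper runs, 401 in DESeq2 without that embryo and 124 in the upper run without it. Calls higher numbered 29 in edgeR, 61 on centring, 44 with the deposited factors, 87 with no filter, 353 with array weights, 245 without Ctrl_LNA 48, 2 in the upper run, 85 in edgeR and 268 in DESeq2 without that embryo and 7 in the upper run without it. Leaving out embryos gave 176 to 409 lower and 100 to 245 higher. The causes were not tested. Centring changes the values relative to the median gene, which stood at 0.26.

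Signs changed for genes near 0 in the main fit, such as Mdm2 and Cdkn1a. They also changed for uncalled genes with larger estimates there, such as Rrm2b (0.74) and Cdkn3 (0.85). Mdm2 was 0.017 with array weights and 0.009 in the lower run. Cdkn1a was 0.18 in edgeR, 0.29 in DESeq2 and with the deposited factors, 0.013 with a pseudocount of 10, 0.38 in the lower run, and 0.13 and 0.17 in edgeR and DESeq2 without Ctrl_LNA 48, with -0.14 to 0.15 over embryos left out. Bax was 0.41 in the upper run and -0.50 to 0.067 over embryos left out. Trp53inp1 was -0.056 on centring and -0.19 in the lower run. Rrm2b was -0.35 in the lower run and 1.84 in the upper, and Cdkn3 -0.024 in the upper run and -0.42 there without Ctrl_LNA 48. Det1 was -0.12 on centring, -0.13 with array weights, -0.067 without Ctrl_LNA 48, -0.30 in the lower run, and -0.067 to 0.44 over embryos left out. Abhd2 was 0.24 in edgeR, 0.38 in DESeq2 and with the deposited factors, 0.034 in the lower run, 0.21 and 0.27 in edgeR and DESeq2 without Ctrl_LNA 48, and -0.45 to 0.18 over embryos left out. Birc6 lost its call only in the fits of single runs (adjusted p = 0.0877, 0.13 and 0.0602), and Abcb1a in 20 of 32 fits with an embryo left out. No paired analysis was possible because the groups share no library numbers. Depth limits Zmat3, Bbc3 and Phlda3, which had few or no reads in many embryos.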
